A study of Mus musculus with 40 samples.

Results

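The comparison described here asks what a catalytic mutation of Kat6a added to mouse embryos that already carried a catalytic mutation of Kat6b. It set 4 whole embryos homozygous for both Kat6a G656E and Kat6b G577E (Kat6a E/E;Kat6b E/E, the double mutants) against 4 whole embryos that were wild type at Kat6a and homozygous for Kat6b G577E (Kat6b E/E). These 8 libraries, chosen by their genotype labels, are 8 of the 40 RNA sequencing libraries of the series, and all 8 came from embryonic day 9.5 (E9.5) embryos. A further 3 E9.5 genotypes, each with 4 libraries, were read beside them: wild type at both genes (WT), homozygous for Kat6a G656E alone (Kat6a E/E), and homozygous for a Kat6a null allele. A last group of 4 E9.5 libraries, homozygous for the Kat6b dec allele, entered only the model and the plot of called genes. Sorted E14.5 fetal liver cells that were negative for lineage markers and positive for SCA1 and c-KIT (LSK cells) gave the same genotype comparison in 4 double mutant and 4 Kat6b E/E libraries. Both point mutations were germline, were made with Cas9 on a C57BL/6J background and were present in every cell of the embryo. Because Kat6b G577E was homozygous in both groups, each difference between them was measured in the absence of a wild-type Kat6b allele.

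KAT6A and KAT6B are histone lysine acetyltransferases of the MYST family, and each works in a complex with a BRPF scaffold protein, an ING reader protein and MEAF6. They acetylate histone H3 near active genes. KAT6A is known in the embryo for sustaining Hox and Tbx1 expression and for its need in blood stem cells, and KAT6B for its roles in brain and skeleton. The glycine that each mutation replaces with glutamic acid lies in the acetyl-CoA binding part of the catalytic domain, so the mutant proteins can still be made but are expected to lack enzyme activity, whereas a null allele removes the protein.

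The reference coding sequence around the mutated codon is shown for both genes because the 2 mutations alter the same position of closely related domains. Each line gives 63 bases of spliced coding sequence, 5′ to 3′, from the GRCm39 genome, with the glycine codon in capitals. The Kat6a codon is that of G656E in the Ensembl canonical protein, lies in exon 13 of 18 and occupies chr8:23416459-23416461 on the plus strand. The Kat6b codon is that of G577E, lies in exon 12 of 17 and occupies chr14:21687681-21687683 on the plus strand. Of the 63 bases, 46 were identical between the genes (73.0%).
Kat6a G656E codon: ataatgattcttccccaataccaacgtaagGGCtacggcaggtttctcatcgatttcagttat
Kat6b G577E codon: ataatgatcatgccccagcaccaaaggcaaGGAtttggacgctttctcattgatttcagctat

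The transcripts of both mutated genes were read first. Levels are given as CPM, counts divided by library size after scaling by the trimmed mean of M values (TMM). Kat6a measured 177.1, 164.3, 172.8 and 167.7 CPM in double mutant embryos 1 to 4 and 201.6, 158.1, 187.2 and 196.0 CPM in Kat6b E/E embryos 1 to 4. The lowest value of all was a Kat6b E/E embryo, and the groups overlapped (log2 difference, double mutant minus Kat6b E/E, -0.12 ± 0.0925 SE, false discovery rate (FDR) 0.659, limma). Kat6b measured 40.7 to 56.0 CPM in the double mutants and 38.8 to 46.9 CPM in Kat6b E/E embryos, also with overlap (log2 difference -0.01 ± 0.0692 SE, FDR 0.967). Gene counts cannot show a base substitution, so neither level checks the genotype labels. Among 11 tested members of the KAT6 complexes and the MYST family none passed FDR 0.05, and Ing5, the ING subunit, was the only one with an unadjusted p under 0.05 (log2 difference 0.12, FDR 0.367).

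The 8 libraries held between 11836200 and 17759700 counts, with medians of 15959600 in the double mutants and 13454400 in Kat6b E/E. No litter supplied embryos of both groups (6 litters, at most 2 of the 8 libraries each), so genotype and litter cannot be told apart. The lineages of a whole embryo were all present: 22 of 22 heart, 20 of 20 neural crest, 26 of 26 neuronal and 15 of 18 somite genes were expressed enough to be tested. All 8 libraries carried the Y-linked gene Ddx3y at 45.3 CPM or more and Xist at 0.514 CPM or less, that is, all were male. Double mutant embryo 2 stood apart. Its summed level of 20 hypoxia response genes was 11465 CPM, against 4880 to 6185 CPM in the other 3 double mutants and 4683 to 5316 CPM in Kat6b E/E embryos. The model gave that embryo 10.04% of the weight of the double mutant mean and the others 23.8% to 35.1%. The counts of called genes and of the gene lists are also given without it.

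Only 4 of 14183 tested genes passed FDR 0.05 (0.0282%), 2 higher (0.0141%) and 2 lower (0.0141%) in the double mutants. Commd3 and Bmi1, which are neighbours on chromosome 2, rose, and Adam22 and Rims2, which act at synapses, fell. The test was limma on voom weights with litter as a random block and 4 surrogate variables. These calls depended on the model: the number was 0 with 0 surrogate variables, 0 with the 8 libraries alone, 0 without Kat6b E/E embryo 4 and 50 without double mutant 1. With 0 surrogate variables the 4 genes had log2 differences of 0.53, 0.29, -0.67 and -0.84 and FDR of 0.159, 0.391, 0.391 and 0.159, in the order named above. Without double mutant 2 the same 4 genes were called with 4 others, Krt18 higher and Slc7a11, Rpl7a and Cyfip2 lower. At an unadjusted p under 0.05 there were 1699 genes (12%), of which 881 were higher (6.21%) and 818 lower (5.77%). For 549 genes (3.87%) the 4 values of one genotype all lay outside the range of the other, 253 higher (1.78%) and 296 lower (2.09%) in the double mutants. The median absolute log2 difference over all genes was 0.081 and the median SE was 0.086, so the typical difference was no larger than its error. The distance between whole profiles did not pass a test of separation. The mean distance over the 500 most different genes of each pair was 1.47 on the log2 scale between groups, 0.0351 more than within them (exact one-sided permutation p = 0.143 over 35 splits).

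Commd3, a COMM domain protein gene whose family takes part in endosomal sorting and NF-kappaB control, measured 31.9, 29.2, 33.3 and 34.2 CPM in the double mutants and 23.9, 23.7, 19.7 and 22.8 CPM in Kat6b E/E embryos. Every double mutant lay above every Kat6b E/E embryo, and the latter lay around the WT mean of 23.0 CPM. Commd3 rose by 0.50 ± 0.0714 on the log2 scale (SE, n = 4 per genotype, 95% interval 0.35 to 0.64, FDR 0.00333, limma). Leaving out Kat6b E/E embryo 4 raised the FDR of Commd3 to 0.0599, above the threshold, with a log2 difference of 0.49.

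Bmi1, a Polycomb repressive complex 1 subunit that represses the Cdkn2a locus and sustains self-renewal, measured 122.7, 99.8, 123.8 and 112.1 CPM in the double mutants. Kat6b E/E embryos had 89.5, 89.4, 101.0 and 89.3 CPM. The groups overlapped at one point only, where double mutant 2 fell just below Kat6b E/E embryo 3. Bmi1 rose by 0.34 ± 0.0615 on the log2 scale (95% interval 0.22 to 0.47, FDR 0.0391, limma). Its FDR was 0.0757, 0.0590 and 0.0599 without Kat6b E/E embryos 1, 2 and 4, at log2 differences of 0.34 each time.

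Adam22, the synaptic receptor of the secreted protein LGI1, measured 4.9, 7.2, 5.0 and 6.0 CPM in the double mutants and 10.1, 8.5, 9.5 and 8.6 CPM in Kat6b E/E embryos. The groups did not overlap, with the highest double mutant again embryo 2. Adam22 fell by 0.73 ± 0.133 on the log2 scale (FDR 0.0391, limma). The Kat6b E/E mean of 9.19 CPM lay above the WT mean of 7.93 CPM, and the double mutant mean was 5.79 CPM. Without double mutant 4 or Kat6b E/E embryo 1, 2 or 4 the FDR was 0.0597, 0.115, 0.0590 and 0.108, and the log2 difference lay between -0.77 and -0.67.

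Rims2, a scaffold of the presynaptic active zone, measured 8.1, 8.0, 7.7 and 6.7 CPM in the double mutants and 11.7, 13.9, 15.4 and 13.6 CPM in Kat6b E/E embryos, again without overlap. Rims2 fell by 0.73 ± 0.135 on the log2 scale (FDR 0.0391, limma). The double mutants had a mean of 7.64 ± 0.672 CPM (SD, n = 4). Without double mutant 4 or Kat6b E/E embryo 2, 3 or 4 the FDR was 0.102, 0.0867, 0.0649 and 0.108, with log2 differences from -0.72 to -0.68.

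**Figure D1:**
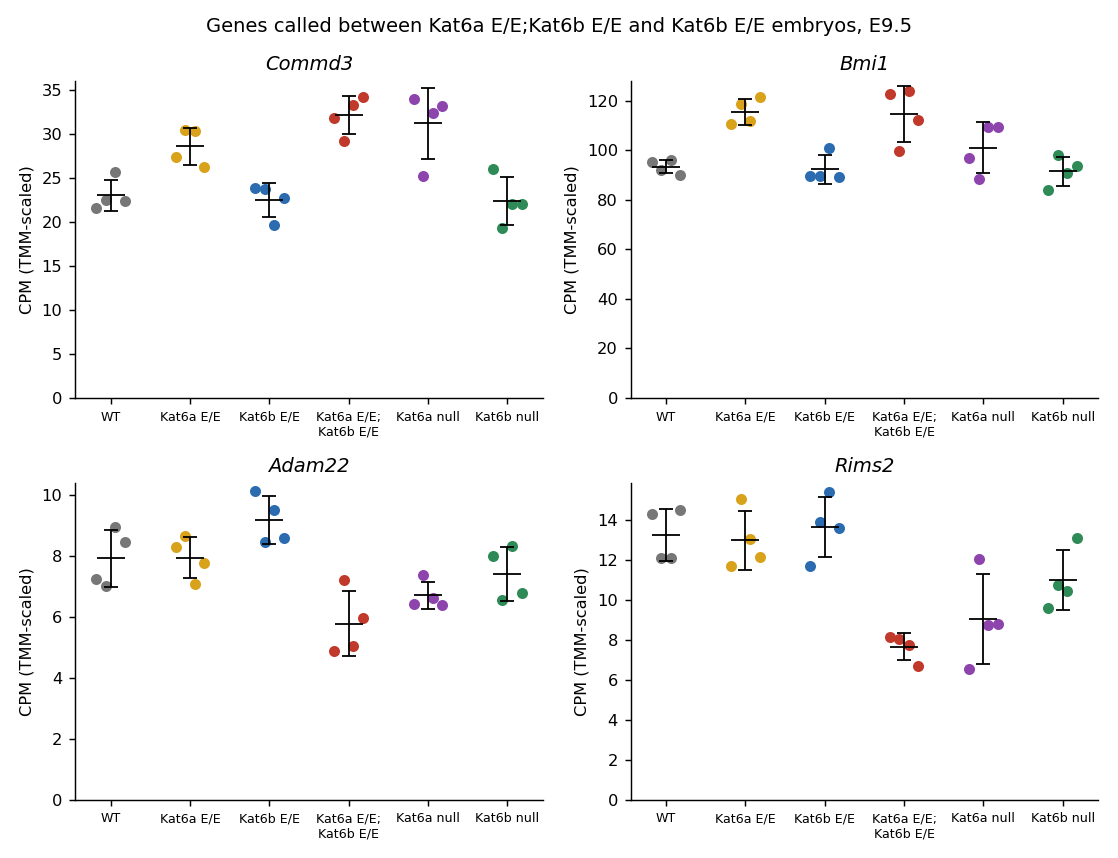
TMM-scaled CPM of the 4 called genes (1 panel each, y axes starting at 0) in every E9.5 library of 6 genotypes. Points are embryos, and the bar and whiskers are the mean and SD of 4. Commd3 and Bmi1 lay higher in Kat6a E/E and double mutant embryos than in WT and Kat6b E/E embryos, while Adam22 and Rims2 were lowest in the double mutants.

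Commd3 and Bmi1 follow each other on the plus strand of chromosome 2, Commd3 at chr2:18677221-18681045 and Bmi1 at chr2:18681292-18691441 (GRCm39, GENCODE vM39), with 246 bases between them. The 250 bases before Commd3 (chr2:18676971-18677220) and the 246 bases between the genes (chr2:18681046-18681291) are printed because they are the sequence next to both starts. CG pairs are in capitals, and there are 43 in the first and 31 in the second. Over a window of 250 bases before the start in the RefSeq GRCm38.p6 promoters, Commd3 has 45 CG pairs and Bmi1 21, against a median of 6. As many as at Commd3 were found in 0.405% of 32851 promoters, and as many as at Bmi1 in 16.3%.
before Commd3: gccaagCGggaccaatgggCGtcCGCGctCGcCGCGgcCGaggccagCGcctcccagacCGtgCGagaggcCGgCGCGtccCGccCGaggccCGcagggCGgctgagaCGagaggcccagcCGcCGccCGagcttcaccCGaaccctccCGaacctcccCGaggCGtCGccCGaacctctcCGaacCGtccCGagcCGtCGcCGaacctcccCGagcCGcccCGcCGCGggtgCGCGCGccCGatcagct
between Commd3 and Bmi1: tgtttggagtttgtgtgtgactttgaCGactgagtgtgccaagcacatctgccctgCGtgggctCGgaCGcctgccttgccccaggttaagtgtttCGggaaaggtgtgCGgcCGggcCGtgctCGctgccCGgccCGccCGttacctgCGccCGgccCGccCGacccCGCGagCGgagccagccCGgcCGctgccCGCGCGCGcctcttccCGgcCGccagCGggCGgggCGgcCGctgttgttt

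Of 7 tested genes within 700 kb of the start of Bmi1, the 2 called were this pair, and the other 5 did not pass the test. Dnajc1, an endoplasmic reticulum co-chaperone gene whose start lies at -283.6 kb from that of Bmi1, had a log2 difference of 0.22 ± 0.0687 (FDR 0.195), with overlap of the groups. Mllt10 (0.04), Skida1 (-0.12), Pip4k2a (-0.04) and Msrb2 (0.10) all had log2 differences with FDR over 0.5. The library kit did not keep strand, and 1 antisense long noncoding RNA gene has exons in the span of Commd3 and Bmi1. Its reads cannot be told apart from those of a gene that it overlaps.

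**Figure D2:**
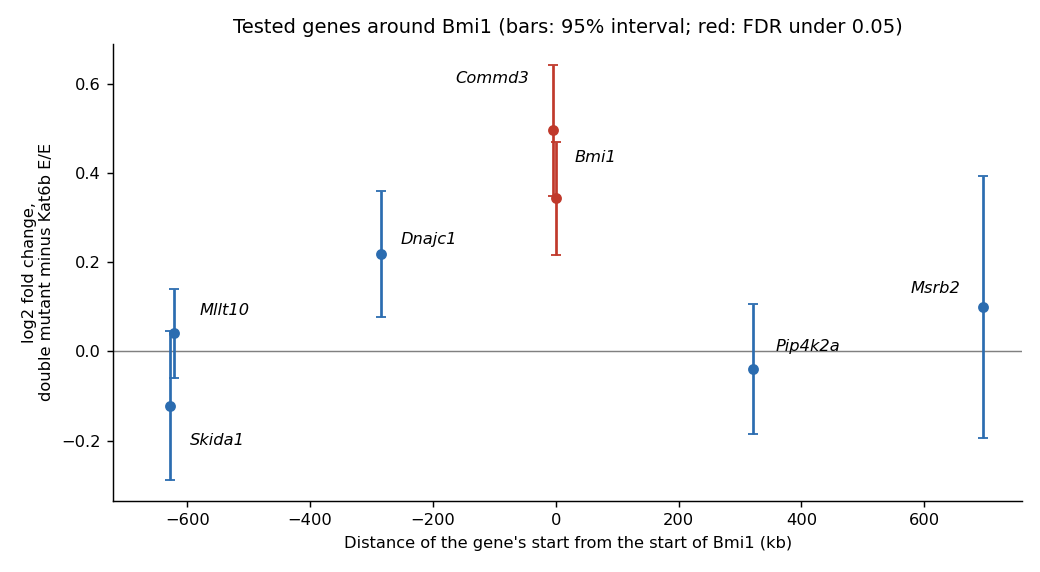
log2 fold change between double mutant and Kat6b E/E embryos (y axis) of the 7 tested genes within 700 kb of Bmi1, by distance from the start of Bmi1 in kb (x axis). Bars are 95% intervals. Commd3 and Bmi1 (red) pass FDR 0.05, and the other 5 (blue) do not.

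Bmi1 was also called when Kat6a G656E was placed on a wild-type Kat6b background. That comparison (Kat6a E/E minus WT) shares no library with the one above, although variance and surrogate variables were estimated jointly. It called 39 of 14183 genes (0.275%), and 1421 (10%) had an unadjusted p under 0.05. Bmi1 was among them (log2 difference 0.30, FDR 0.0182), with means of 115.5 CPM in Kat6a E/E and 93.4 CPM in WT embryos. Commd3 had a log2 difference of 0.30 (FDR 0.0511) and means of 28.6 and 23.0 CPM. The difference between both comparisons, tested as an interaction, was 0.19 for Commd3 (FDR 0.795) and 0.05 for Bmi1 (FDR 0.949).

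Adam22 and Rims2 were near 0 in that comparison. On the wild-type Kat6b background Adam22 had a log2 difference of 0.01 (means 7.96 and 7.93 CPM) and Rims2 one of -0.06 (means 12.98 and 13.23 CPM). The interaction estimate was -0.73 ± 0.180 for Adam22 (FDR 0.31) and -0.67 for Rims2 (FDR 0.397), neither past the threshold over all genes. In Kat6a null embryos, read against WT, the log2 differences were 0.33 for Commd3, 0.11 for Bmi1, -0.17 for Adam22 and -0.45 for Rims2. Signed along the double mutant difference, the median Kat6a E/E minus WT value of the 4 genes was 0.18. Over all genes the interaction called 0 of 14183 (0%) by limma at a smallest FDR of 0.153, with 910 (6.42%) at an unadjusted p under 0.05. DESeq2 called 2 with surrogate variables and 1 without.

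In E14.5 LSK cells both genes had positive log2 differences that did not pass the test. LSK Bmi1 measured 69.6 to 93.0 CPM in double mutants and 46.8 to 67.1 CPM in Kat6b E/E fetuses (log2 difference 0.63, FDR 0.0641, limma), and LSK Commd3 67.5 to 85.9 against 50.6 to 59.4 CPM (log2 difference 0.36, FDR 0.105). Neither pair of ranges overlapped, as was so for 650 of 13071 LSK genes (4.97%), 292 of them higher in the double mutants (2.23%). LSK double mutants 2, 3 and 4 came from a single litter without a Kat6b E/E library, and Kat6b E/E fetuses 2 and 3 shared another. Only double mutant 1 and Kat6b E/E fetus 1 came from the same litter. The fetuses of a genotype were thus not independent, and litter was largely confounded with genotype. LSK cells called 193 genes (1.48%), 72 higher (0.551%) and 121 lower (0.926%), a number that ran from 0 to 2929 when 1 library was left out and was 0 with 0 surrogate variables, and 2721 (20.8%) had an unadjusted p under 0.05. Adam22 had a log2 difference of -0.23 in LSK cells (FDR 0.789), and Rims2 was at or near 0 there and was not tested.

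The next genes by p did not pass FDR 0.05 but sat close to it. Uncx, a homeobox gene of the posterior part of each somite, measured 6.4, 11.3, 8.1 and 5.9 CPM in the double mutants and 13.7, 14.0, 14.0 and 12.1 CPM in Kat6b E/E embryos. The groups did not overlap (log2 difference -0.97 ± 0.190, FDR 0.0614). Hira, a histone H3.3 chaperone gene, measured 149.2 to 157.7 CPM in the double mutants and 167.7 to 179.3 CPM in Kat6b E/E embryos (log2 difference -0.20 ± 0.0397, FDR 0.0614), and Rxra, the common partner of nuclear receptors, 102.5 to 118.4 against 128.1 to 134.7 CPM (log2 difference -0.22 ± 0.0442, FDR 0.0614). Neither overlapped. Cyfip2, a subunit of the WAVE complex that promotes actin branching, likewise separated the groups, at 33.7 to 41.7 against 41.9 to 56.4 CPM (log2 difference -0.33, FDR 0.0614). Foxp4, a forkhead repressor, had 270.7 to 310.0 against 311.1 to 360.0 CPM (log2 difference -0.22, FDR 0.0797), a gap of about 1 CPM.

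On the higher side, Aldoc, a glycolytic aldolase, measured 3.9, 16.9, 3.7 and 6.4 CPM in the double mutants and 1.8, 3.0, 2.8 and 2.7 CPM in Kat6b E/E embryos (log2 difference 0.86 ± 0.174, FDR 0.0614). Clcn3, an endosomal chloride transporter, had 67.9, 124.0, 69.4 and 81.9 against 60.6 to 65.4 CPM (log2 difference 0.29, FDR 0.067). In both genes embryo 2 was far above its group. Cdkn1b, the p27 cyclin-dependent kinase inhibitor, had 47.9 to 83.6 against 41.8 to 50.9 CPM with overlap (log2 difference 0.30, FDR 0.0797), and Ssb, the La RNA-binding protein, 309.3 to 391.7 against 306.2 to 356.3 CPM (log2 difference 0.18, FDR 0.0614). Cdkn1b is again highest in embryo 2, and Ssb is lowest there.

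The heart and craniofacial transcription factor genes that were read by name did not pass FDR 0.05. Tbx1, which patterns the pharyngeal arches and outflow tract, had a log2 difference of -0.12 (FDR 0.681), Tbx5 -0.16 (FDR 0.576), Tbx2 -0.15 (FDR 0.616), Foxc1 -0.10 (FDR 0.537) and Foxa2 -0.17 (FDR 0.785). Foxc2 had -0.32 ± 0.102 (FDR 0.208) and Tbx15, a limb and skeletal factor, -0.67 ± 0.266 (FDR 0.299). The values of all 7 genes overlapped between the groups.

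The lists of genes by pathway held no called gene other than Commd3 and Bmi1, and without double mutant 2 also Rpl7a (-0.28, FDR 0.0429). They are therefore described by how many members had an unadjusted p under 0.05, which 12% of all genes had, and by the median log2 difference, which was 0.0049 over all genes. Each list was also read in 32 other fits, and the range is given for some lists. These fits used other numbers of surrogate variables, scalings, filters and models, or left out 1 WT, Kat6a E/E, Kat6b E/E or double mutant embryo. The median changed sign in 11 of these fits for the KAT6 complex and MYST list, in 10 for respiratory chain, in 6 for T-box, in 4 for WNT, in 3 for neural progenitor and in 1 each for neural crest and MYC genes, and in none for the other lists.

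Fibroblast growth factor (FGF) genes had mostly positive log2 differences (13 of 17). The pathway carries signals from secreted FGF ligands to the ERK kinases, which in turn switch on Sprouty and Dusp genes that limit the signal. The median log2 difference of 17 tested ligands and targets was 0.21, and 4 were higher and 0 lower at p under 0.05. Among the feedback inhibitors, Spry1 measured 48.1, 52.0, 41.7 and 41.9 CPM in the double mutants and 39.3, 37.5, 37.4 and 38.4 CPM in Kat6b E/E embryos (log2 difference 0.22 ± 0.0702, FDR 0.194). Dusp6, the ERK phosphatase, had 129.1 to 142.5 against 111.5 to 124.1 CPM (0.19 ± 0.0562, FDR 0.165), and Spry2 39.2 to 45.5 against 32.9 to 41.6 CPM (0.23, FDR 0.21). The groups were apart for Spry1, Dusp6 and Spry4, and overlapped for Spry2. Of the ligands, Fgf15 had 24.9 to 33.4 against 20.3 to 32.1 CPM (0.34 ± 0.0962, FDR 0.157), while Fgf8, Fgf3, Fgf9 and Fgf17 had log2 differences of 0.21 to 0.38 with FDR of 0.44 or more. The FGF-responsive factors Etv4 (-0.11) and Etv5 (0.04) stayed near 0, as did Spred1 (0.02), Spred2 (-0.07) and Il17rd (0.02).

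The 5 FGF genes with an interaction p under 0.05 (limma), Spry1, Spry2, Spry4, Dusp6 and Fgf15, had negative values on the wild-type Kat6b background. Picking genes by that p favours opposite signs in the comparisons. Of the other ligands named above, Fgf8 (0.07) and Fgf17 (0.26) were positive there, and Fgf3 (-0.05) and Fgf9 (-0.08) negative. In Kat6a E/E minus WT, Spry1 had a log2 difference of -0.27, Fgf15 -0.24, Dusp6 -0.14, Spry2 -0.14 and Spry4 -0.32, and the median of the 17 was -0.05. At p under 0.05 the interaction was positive for 527 and negative for 383 of all 14183 genes. Of the 17 it was positive for 5 and negative for 0, among them Spry1 (0.50 ± 0.0988, FDR 0.212), Dusp6 (0.33, FDR 0.3) and Fgf15 (0.58, FDR 0.3). None passed FDR 0.05. Without embryo 2 the counts in the double mutant comparison stayed at 4 and 0, with a median of 0.19, and over the 32 other fits the median was 0.16 to 0.22 with 2 to 5 members higher.

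**Figure D3:**
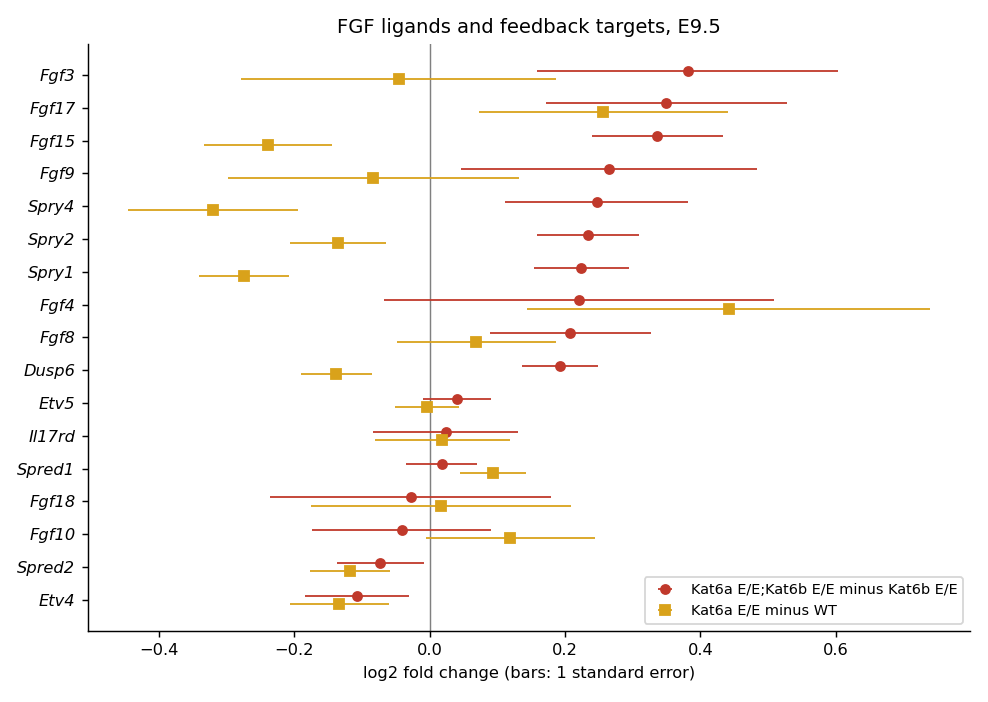
log2 fold change of the 17 tested FGF ligands and feedback targets in double mutant minus Kat6b E/E embryos and in Kat6a E/E minus WT embryos. Bars are the SE in either direction, not 95% intervals. Spry1, Spry2, Spry4, Dusp6 and Fgf15, which had an interaction p under 0.05 (limma), lay above 0 in the double mutant comparison and below 0 in the other. No gene passed FDR 0.05 in the double mutant comparison.

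Mycn, the embryonic MYC family factor, had the smallest interaction p of all genes and is named here after its values were seen (interaction 0.46 ± 0.0829, FDR 0.153). It measured 175.8, 222.1, 172.6 and 200.3 CPM in the double mutants and 142.1, 144.1, 180.1 and 174.4 CPM in Kat6b E/E embryos, with overlap (log2 difference 0.18, FDR 0.23). In Kat6a E/E minus WT, Mycn fell by 0.28 on the log2 scale (FDR 0.0198). Of 10 MYC and polyamine genes tested in the double mutant comparison, Odc1 (0.13) and Mycn were higher and Srm (-0.17), the spermidine synthase gene, lower at p under 0.05.

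Hox genes, which give segments along the body axis their identity, had a median near that of all genes. Of 38 tested, 6 were higher and 1 lower at p under 0.05, and the median was 0.03, against -0.31 in Kat6a E/E minus WT. Over the other fits the median ranged from 0.0009 to 0.27, with 0 to 10 members higher, and was 0.24 with 0 surrogate variables. The higher ones were Hoxd1 (0.54), Hoxd8 (0.41), Hoxd10 (0.65), Hoxa10 (0.67), Hoxc11 (1.29) and Hoxc13 (1.03), and the lower one was Hoxa5 (-0.27). Hoxc11 and Hoxc13 were barely expressed and overlapped between the groups. Their means were 3.30 and 0.81 CPM in the double mutants and 2.65 and 0.71 CPM in Kat6b E/E embryos. These means lay closer together than the log2 differences of the model. The posterior genes varied widely among Kat6b E/E embryos: Hoxa10 measured 14.7 ± 8.58 CPM there and 18.8 ± 2.61 CPM in the double mutants (SD, n = 4), and Hoxd10 8.1 ± 3.58 and 11.6 ± 0.701 CPM. The interaction was positive for 10 and negative for 0 of the 38 at p under 0.05, with a median of 0.29. Over all 14183 genes it was positive for 527 and negative for 383 at that p, with a median of 0.005.

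Somite and segmentation genes had a median of -0.35 over 15 tested (-0.38 to -0.15 over the other fits), with 0 higher and 4 lower at p under 0.05. Besides Uncx these were Tcf15 (-0.35, FDR 0.251) and Meox1 (-0.39, FDR 0.301), which mark epithelial somites and their sclerotome and muscle derivatives, and Mesp2 (-1.43, FDR 0.375). Mesp2 was barely expressed and overlapped between the groups, at means of 0.530 CPM in the double mutants and 0.686 CPM in Kat6b E/E embryos. These means lay closer together than the log2 difference of the model. Myog, a muscle differentiation factor, separated the groups at means of 3.39 and 4.89 CPM (-0.48, FDR 0.442). Other presomitic and segmentation genes went both ways. Msgn1 (1.60), Tbx6 (0.75), Hes7 (0.44) and Dll1 (0.19) had positive values. Ripply1 (-0.47), Lfng (-0.12) and Dll3 (-0.002) had negative ones. All of these had FDR of 0.42 or more. Pax1, a sclerotome gene of the Pax list, had -0.89 ± 0.284 (FDR 0.236). In Kat6a E/E minus WT the somite median was -0.24.

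Hedgehog pathway genes had a median of -0.13 over 17 tested, with 0 higher and 4 lower at p under 0.05. Sufu, the cytoplasmic inhibitor of GLI factors, measured 115 ± 1.15 CPM in the double mutants and 129 ± 2.50 CPM in Kat6b E/E embryos without overlap (SD, n = 4, log2 difference -0.16, FDR 0.121). The receptor and target Ptch1 had -0.17, the ligand Dhh -1.08 and the floor plate-dependent ventral neural factor Nkx6-1 -0.55. Neuronal genes had a similar median of -0.13 over 26 tested (-0.26 to -0.06 over the other fits). At p under 0.05, 0 were higher and 3 lower, a share of 11.5% that was near the 12% of all genes. The 3 were the only collapsin response mediator genes of the list, which act on growth cone microtubules. They were Dpysl4 (-0.30, FDR 0.0943), Crmp1 (-0.22, FDR 0.135) and Dpysl3 (-0.18, FDR 0.173), and no other neuronal gene of the list had p under 0.05. The summed level of 8 neuron markers was 181 to 293 CPM in the double mutants and 227 to 345 CPM in Kat6b E/E embryos, and its part in these values was not tested. In whole embryos, fewer cells of a type and less RNA per cell cannot be told apart.

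All 12 tubulin and cytoplasmic actin genes had negative log2 differences, with a median of -0.09, and 5 had p under 0.05, among them Actb (-0.11, FDR 0.135), Actg1 (-0.11) and Tubb2b (-0.15). Of 11 planar polarity and Celsr genes, 0 were higher and 3 lower, namely Celsr1, Celsr2 (-0.25, FDR 0.135) and Celsr3. Of 37 forkhead genes 1 was higher and 5 lower: Foxp4, Foxc2, Foxf1 (-0.44), Foxf2 (-0.38) and Foxl1 (-0.37) lower and Foxi3 (0.70) higher. Replication licensing genes had a median of -0.05 over 17 tested, and Mcm2, Mcm3, Mcm4 and Mcm5 had log2 differences between -0.11 and -0.09 with p under 0.05. Of 5 cyclin-dependent kinase inhibitors tested 2 were higher at p under 0.05, Cdkn1b and Cdkn2c (0.69, FDR 0.144), the latter at 4.25 against 2.66 CPM.

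Of 22 heart transcription factor and sarcomere genes, 5 were higher and 0 lower at p under 0.05, all 5 of them sarcomere genes, and the median was 0.07. Myl3, a ventricular myosin light chain, measured 55.6, 58.0, 54.6 and 67.2 CPM in the double mutants and 41.5, 40.7, 46.9 and 41.9 CPM in Kat6b E/E embryos. The groups did not overlap (log2 difference 0.40 ± 0.109, FDR 0.154). Tnnt2 (0.29), Myh7 (0.40), Tnni1 (0.23) and Tnnc1 (0.24) overlapped between the groups and had FDR of 0.229 or more. The 7 cardiomyocyte markers all belong to that list, so their sum partly restates it. The summed level was 1346 to 1607 CPM in the double mutants, 1024 to 1304 CPM in Kat6b E/E embryos and 935 to 1499 CPM in WT embryos, and its part in the sarcomere values was not tested.

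Ribosomal protein genes had 3 higher and 17 lower of 81 tested at p under 0.05, with a median of -0.07 (4 to 23 lower over the other fits), against -0.15 in Kat6a E/E minus WT. Rplp2 (-0.26, FDR 0.157), Rpl37 (-0.35, FDR 0.163), Rpl38 (-0.41) and Rpl23a (-0.48) had the smallest p among them. Many of these genes have near-identical processed copies, so their counts are uncertain. Of 80 respiratory chain genes 4 were higher and 4 lower, with a median of 0.008 that was negative in 10 of the other fits.

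Hypoxia response genes had the largest share at p under 0.05, 13 higher and 0 lower of 20, with a median of 0.26 (0.16 to 0.78 over the other fits). Without double mutant 2 the counts were 1 higher (Ero1a) and 1 lower (Eno1), with a median of 0.16. Egln1, an oxygen-sensing hydroxylase of the HIF factors, went from a log2 difference of 0.29 (FDR 0.144) to 0.20 without that embryo, and Vegfa, the endothelial growth factor, from 0.29 (FDR 0.163) to 0.17. Endoplasmic reticulum stress genes had 3 higher and 0 lower of 16, and 1 and 1 without that embryo.

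Other lists also moved without double mutant 2. At p under 0.05, Hox genes then had 9 higher and 1 lower, forkhead genes 2 and 7, and MYC and polyamine genes 4 and 1. Somite genes had 1 higher and 5 lower of 17 then tested, neuronal genes 0 and 5, and ribosomal protein genes 2 and 23. Planar polarity genes had 0 higher and 2 lower, tubulin and actin genes 0 and 4, respiratory chain genes 3 and 4, and T-box genes 1 and 1. The heart, Hedgehog, replication licensing and kinase inhibitor lists had the counts given above.

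**Figure D4:**
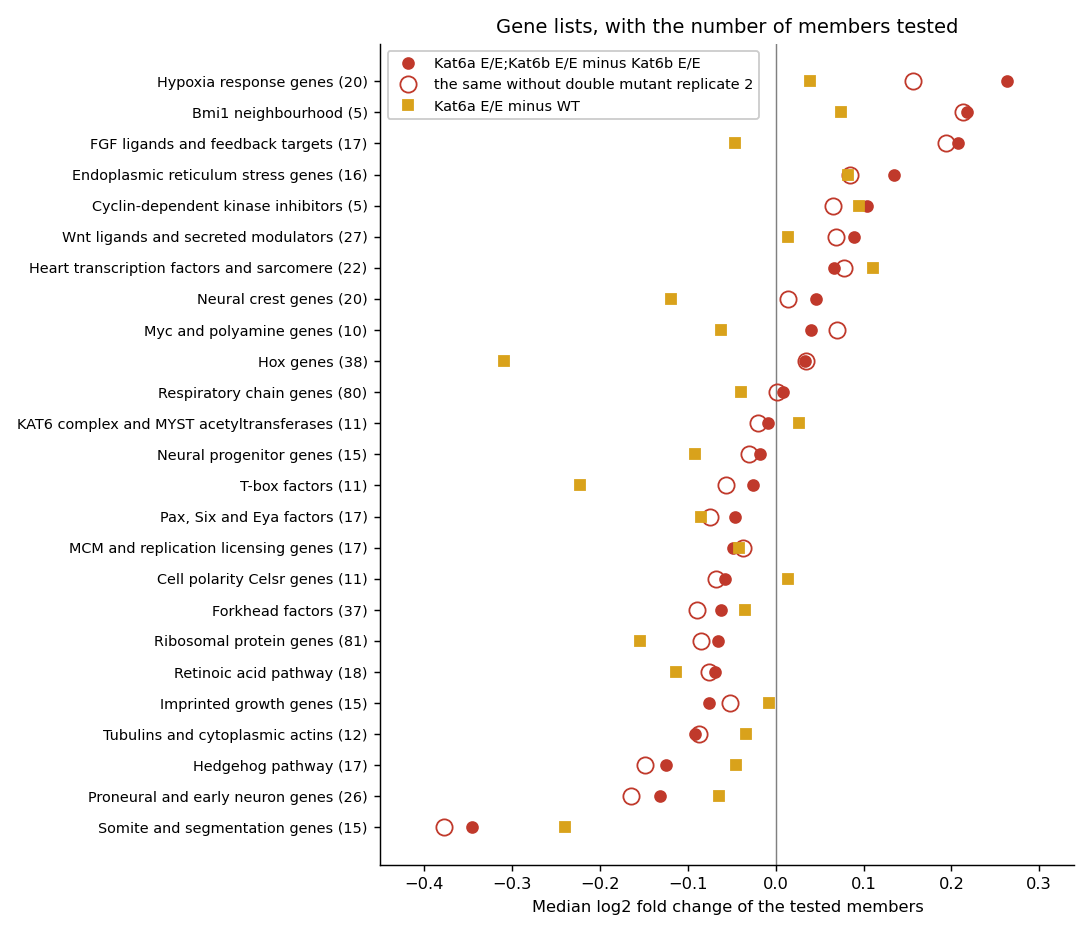
Median log2 fold change (x axis) of the tested members of each gene list, with the number tested in parentheses (y axis). Filled circles are double mutant minus Kat6b E/E embryos, open circles the same without double mutant 2, and squares Kat6a E/E minus WT. The FGF and Hox medians lay furthest to the right of their squares, and the hypoxia median moved most when embryo 2 was left out.

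Genes called for loss of Kat6a had mostly the same sign when the point mutation was added. The set was the 375 genes called between Kat6a null and WT embryos (2.64% of 14183), none of whose libraries are among the 8. Of these, 347 (92.5%) had the same sign in double mutant minus Kat6b E/E, where 64.0% of all genes had the same sign in both comparisons. At p under 0.05 there were 138 with the same sign and 0 with the opposite one, where 9.82% and 2.16% of all genes were. The 179 genes higher in the null had a median log2 difference of 0.17, and the 196 lower ones -0.13, so the size of the differences was small. The groups were apart in the null direction for 17 of the 179 (9.5%) and 32 of the 196 (16.3%), and in the opposite direction for 0. Over all genes tested 1.78% were apart with the double mutants higher and 2.09% with them lower. Commd3 and Rims2 were the 2 members also called here.

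Some of the members with small p are given here. Sfrp2, a secreted WNT antagonist, had 107.3 to 128.6 CPM in the double mutants and 130.8 to 145.2 CPM in Kat6b E/E embryos (log2 difference -0.25, FDR 0.0932), against -0.51 in the null. Notch1 had -0.28 (null -0.31), Trim9, a neuronal ubiquitin ligase, -0.51 (null -0.53), and Nell2, a secreted neuronal glycoprotein, -0.42 (null -0.58). Among those higher were Cdkn2c (0.69, null 0.79), the gap junction gene Gja1 (0.17, null 0.19), the epithelial keratin Krt18 (0.34, null 0.36) and Myl3 (0.40, null 0.59). One of the 4 Kat6a null libraries carried Xist, so that set includes 1 embryo of the other sex.

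The surrogate variables are estimated over all E9.5 libraries and so tie the comparisons together. With 0 surrogate variables in both comparisons 111 genes were called in the null, of which 103 (92.8%) had the same sign and at p under 0.05 there were 24 with that sign and 0 with the other. Read with 0 surrogate variables, 337 of the 375 had the same sign and 97 with p under 0.05, with 1 opposite. Over all genes, with 0 surrogate variables, 55.2% had the same sign. At p under 0.05, 6.26% of all genes had the same sign and 3.05% the opposite one. With only the 8 libraries and no surrogate variables, 25 of the 179 higher genes and 43 of the 196 lower genes had p under 0.05 in the null direction and 0 in the other. In that fit 1.59% of all genes were higher and 1.72% lower at p under 0.05. Across all genes the log2 differences of both comparisons had a Pearson correlation of 0.35 (0.23 with 0 surrogate variables), given as a description over genes that share libraries within each comparison.

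**Figure D5:**
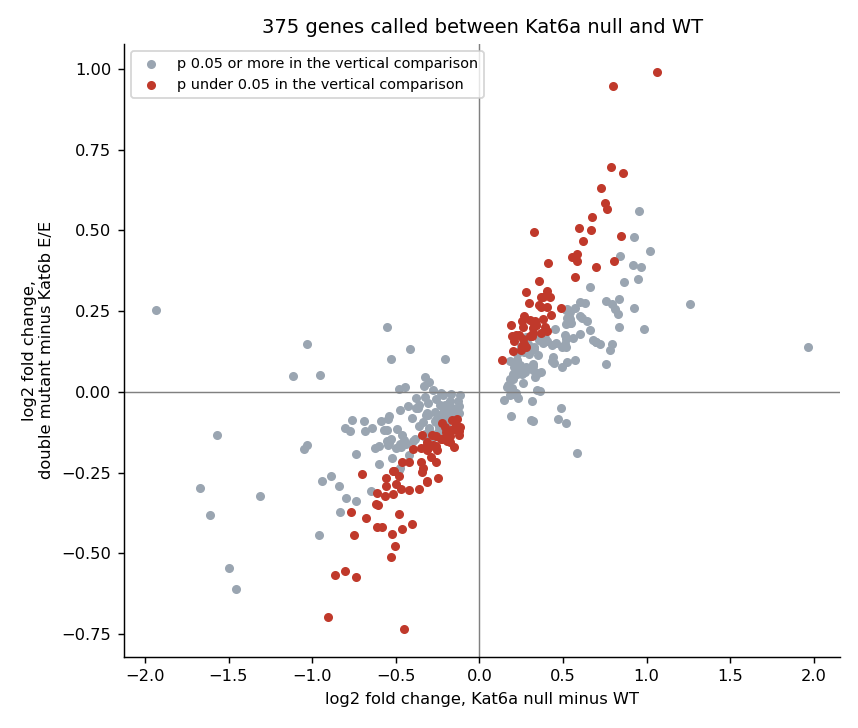
log2 fold change in Kat6a null minus WT embryos (x axis) and in double mutant minus Kat6b E/E embryos (y axis) of the 375 genes called in the former. The points lie mostly at the lower left and upper right, 347 of 375 with the same sign, and the y values are mostly smaller.

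The 39 genes called between Kat6a E/E and WT embryos were read in the same way. In the double mutant comparison 36 (92.3%) had the same sign, where 55.8% of all genes did, and 26 had p under 0.05 in that direction and 1, Mycn, in the other, against 8.18% and 3.80% of all genes. Besides Bmi1 they included Srm (-0.17, and -0.25 in Kat6a E/E minus WT), Nalf2 (-0.48 and -0.53), Bex2 (-0.20 and -0.20) and ribosomal protein genes. Bmi1 was the only gene called in both. Across all genes the Pearson correlation was 0.10, and -0.02 with 0 surrogate variables.

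The distance between whole transcriptomes was not shown to exceed that within groups. Over the 500 genes that differed most between libraries, the mean distance on the log2 CPM scale was 1.47 between the groups, 1.41 within double mutants and 1.46 within Kat6b E/E. The excess of the former over the mean of the latter was 0.0351 (exact one-sided permutation test over 35 splits, p = 0.143, smallest possible 0.0286).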

How the data were processed

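RNA from 24 whole E9.5 embryos and 16 sorted E14.5 LSK samples was sequenced by the authors, who aligned paired reads with Rsubread to mm39 and deposited raw counts of read pairs per RefSeq gene from featureCounts. The TruSeq v2 kit does not keep strand. Labels and methods differ on the sequencer, read length and RNA input, so none is given. The 8 libraries compared were assigned by their genotype labels and held 11836200 to 17759700 counts, and the spread between libraries, not counting error, set the precision. The genes and gene lists were chosen with earlier results of these data known.

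Of 26411 genes in the files, 26359 matched the RefSeq GRCm38.p6 table, from which protein-coding genes off the Y chromosome were kept. After filterByExpr 14183 genes were tested in embryos and 13071 in LSK cells, with TMM scaling, 4 surrogate variables (wsva), voomLmFit with litter as a random block (correlation 0.107) and robust empirical Bayes in limma, and Benjamini-Hochberg FDR under 0.05, as in the study's methods (R 4.3.3, limma 3.58.1, edgeR 4.0.16, DESeq2 1.42.0). Embryos of a genotype were separate animals, though some shared a litter. The genes named were Kat6a and Kat6b, the called genes with the next ones by p up to 6 per direction, the member of smallest p in each list, and 7 heart genes of the study; others named beside them were chosen after their values were seen. Alternatives changed the surrogate variables, scaling, filter, gene types, weights, block and model (edgeR quasi-likelihood, DESeq2), or left out each library. Tested on simulated data of the double mutant comparison (14100 genes), the fit called 24 of 50 genes changed by 0.25 on the log2 scale. It called 47 of 50 changed by 0.5 and 50 of 50 changed by 1, with 7 false calls. The changed genes were drawn from those with high counts, and the simulated libraries had no litter effect and no outlying embryo. These shares therefore need not hold for the real libraries. Sequences and positions are from GRCm39 with GENCODE vM39, and promoter counts of CG pairs from RefSeq GRCm38.p6.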

Additional observations from a re-analysis of the deposited data

Results flagged for a closer look

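In 10 of 64 groups of 4 values that were tested, 1 library lay far from the other 3, and chance alone would single out about 1 in 20 such groups. Double mutant embryo 2 was the one in 5 of these. It had 55.97 CPM of Kat6b against 40.7 to 42.0 CPM in the other double mutants, and 41.7 CPM of Cyfip2 against 33.7 to 34.9 CPM. Its summed endothelium markers were 681 CPM against 468 to 475 CPM, its summed decidua markers 61.8 CPM against 77.3 to 80.4 CPM, and its summed immediate early genes 238 CPM against 186 to 194 CPM.

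In the Kat6b E/E group, embryo 3 had 101.0 CPM of Bmi1 against 89.3 to 89.5 CPM in the others. Embryo 4 had 41.8 CPM of Cdkn1b against 49.4 to 50.9 CPM, 134.7 CPM of Rxra against 128.1 to 128.8 CPM, and 12.06 CPM of Uncx against 13.7 to 14.0 CPM. Embryo 2 had 71.4 CPM of Foxc1 against 80.3 to 81.6 CPM.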

How the results depend on the processing

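The number of genes called between double mutant and Kat6b E/E embryos, 4, depended on the model. It was 0 with 0 surrogate variables, with the quasi-likelihood test without surrogate variables, and with the 8 libraries alone. It was 14 with the quasi-likelihood test with surrogate variables, 16 without the litter block, 20 with surrogate variables weighted by standard deviation, 36 and 55 with DESeq2 without and with surrogate variables, 37 without a filter on low counts and 116 with 6 surrogate variables. Leaving out 1 library gave 0 (without Kat6b E/E embryo 4) to 50 (without double mutant 1), with 40 without double mutant 3 and 8 without double mutant 2. All 4 genes kept their sign in the 23 settings, and Commd3 was called in 19, Rims2 in 15 and Bmi1 and Adam22 in 14 each.

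With the replicate number as a block 1 gene was called. Same-numbered embryos had correlations of 0.034, 0.065, -0.199 and 0.076 in their deviations, so the numbers do not pair them. The interaction called 1 gene with 6 surrogate variables, 2 and 1 with DESeq2 with and without surrogate variables, and 0 to 2 when 1 library was left out (2 without Kat6a E/E embryo 1).

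In LSK cells the 193 calls became 0 with 0 surrogate variables, with the 8 libraries alone and with sample weights, 8 with the replicate block, 12 with the quasi-likelihood test without surrogate variables, 41 without a filter, 56 with surrogate variables weighted by standard deviation, 80 with all gene types, 366 with 2 surrogate variables, 598 without the litter block, 1333 with the quasi-likelihood test with surrogate variables and 1865 with DESeq2 with them. The range when 1 LSK library was left out was 0 to 2929. In embryos, the median Kat6a E/E minus WT value of the called genes, 0.18, ranged from 0.13 to 0.20 with 1 embryo library left out. The excess of the distance between the groups over that within them, 0.0351, was 0.153 (exact permutation p = 0.0286) with 4 surrogate variables removed, which keeps the genotype difference by construction, and 0.000426 to 0.0604 with 1 library left out. The hypoxia count of 13 was 1 without double mutant 2.

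Kat6b, at -0.01, was positive in 11 settings: 0.066 and 0.037 with 0 and 2 surrogate variables, 0.030 with them weighted by standard deviation, 0.071 and 0.070 with the quasi-likelihood test and DESeq2 without them, 0.011 without a filter, 0.069 with the 8 libraries alone, 0.0066 and 0.024 without double mutants 3 and 4, and 0.037 and 0.0071 without Kat6b E/E embryos 1 and 4. With 1 library left out it ranged from -0.059 to 0.037. The causes were not tested.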

Other observations

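The remaining gene lists of the double mutant comparison held no called gene. Of 18 retinoic acid pathway genes 1 was higher and 3 lower at p under 0.05, with a median of -0.07. Cyp26a1 (log2 difference 0.48), which degrades retinoic acid, was higher. The synthesis enzyme gene Aldh1a2 (-0.31) and the receptors Rara (-0.17) and Rxra (-0.22) were lower. The means of Rara, 66.2 CPM in the double mutants and 66.7 CPM in Kat6b E/E embryos, lay closer together than its log2 difference. Of 27 WNT ligands and secreted modulators, Wnt8b (0.36) was higher, and Sfrp2 (-0.25) and Wnt11 (-0.27) were lower, with a median of 0.09 that was negative in 4 of 32 other fits. Of 20 neural crest genes, Tfap2b (0.16) was higher, and Ets1 (-0.16) and Sox10 (-0.28) were lower. Of 15 neural progenitor genes, Zic1 (0.14) was higher and Vim (-0.10) lower, and of 17 genes of the PAX and EYA network, Six6 (0.44) was higher and Pax1 (-0.89) lower. Among 15 imprinted growth genes, 13 of which had negative values, Igf2 (-0.14) and Grb10 (-0.08) were lower. Tbx15 was the only one of 11 T-box genes with p under 0.05. Without double mutant 2 the counts were 0 higher and 2 lower for retinoic acid genes, 0 and 2 for WNT genes, 1 and 1 for neural crest genes, and 0 and 1 for the PAX and EYA network.

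Markers of other cells that a dissected embryo can carry overlapped between the groups. Trophoblast markers summed to 49.8 to 78.4 CPM in the double mutants and 52.4 to 76.9 CPM in Kat6b E/E embryos, and 4 of 14, Prl3d1, Prl7d1, Rhox9 and Tpbpa, had no count in the 8 libraries. Decidua markers summed to 61.8 to 80.4 and 55.6 to 82.0 CPM, with 3 of 9 at 0, and visceral yolk sac markers to 48.8 to 59.8 and 31.7 to 69.5 CPM. Primitive erythroid markers summed to 4620 to 7055 and 3243 to 10318 CPM, and endothelium markers to 468 to 681 and 399 to 521 CPM. Of 9 tested macrophage and platelet genes, summing to 19.3 to 35.4 and 13.02 to 34.5 CPM, 3 were higher at p under 0.05.

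Of the 193 genes called in LSK cells, 174 were tested in embryos, and 108 of these (62.1%) had the same sign there, where 53.3% of all genes did.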
